A study of Mus musculus with 61 samples.

Results

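The conjugating enzymes of the liver attach a small polar group to drugs, bile acids, bilirubin and steroids so that these can leave the cell. They were taken here as all genes on the array whose symbol begins with Gsta, Gstm, Gstp, Gstt, Gstk, Gsto, Gstz (glutathione S-transferases, GST), Ugt (UDP-glucuronosyltransferases, UGT) or Sult (sulfotransferases, SULT). This gave 59 of 19057 genes, of which 44 had a probe detected on at least 5 arrays and were tested among 12157 genes. These 44 were 21 of 22 Gst, 15 of 21 Ugt and 8 of 16 Sult genes. The cells were isolated hepatocytes of C57BL/6 mice. In gp130- mice, Cre recombinase under the albumin promoter deletes the floxed gp130 gene (Il6st), the receptor subunit through which IL-6 signals. The controls were gp130flox littermates, which carry the floxed gene without the deletion and which the labels call wild type. The sources used here do not give the mice's ages. All cells were cultured, kept overnight without serum and then given IL-6 at 200 ng/mL. RNA was taken at 0, 1, 3, 6 and 12 h and hybridized to 61 Illumina arrays, 33 from gp130flox and 28 from gp130- hepatocytes. Every array after 0 h came from IL-6-treated cells, so IL-6 and longer culture cannot be told apart. Levels are log2 of the background-corrected, quantile-normalized signal of a gene's brightest probe, and they do not compare 1 gene with another.

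A GST joins glutathione to a reactive electrophile, a UGT transfers glucuronic acid from UDP-glucuronic acid, and a SULT transfers sulfate from the activated donor PAPS. Hepatocytes carry many of these enzymes, and their genes are known targets of the nuclear receptors PXR and CAR and of the oxidant sensor NRF2. IL-6, the main inducer of the hepatic acute phase response, is known to lower many drug-metabolizing enzymes in hepatocytes through gp130 and STAT3. The question put to the data was how the levels of these genes differed between hepatocytes with and without gp130, and whether they moved after IL-6.

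The deposited columns number the arrays of a genotype, and those that share genotype and number form what is called a preparation. The sample titles speak of mice, but the sources tie no column number to an animal or culture. The number of mice per genotype given with the study is below that of the preparations. The p-values of the fits over times therefore measure the spread between these preparations only. The fits of all 61 arrays, used for single times and IL-6 changes, treat arrays of 1 preparation as independent, though these correlate in part (given below). Gene levels parted numbers 1 to 4 (2 gp130flox and 3 gp130- preparations, 25 arrays) from numbers 6 to 11 (5 gp130flox and 3 gp130- preparations, 36 arrays), so every comparison was made within each set. The preparations were 1 and 2 of gp130flox and 2, 3 and 4 of gp130- in the former, and 7 to 11 of gp130flox and 6, 7 and 9 of gp130- in the latter. Of 10 tested hepatocyte markers, 8 were over 2-fold lower in preparations 1 to 4 without overlap, among them Cyp2e1 (4.39 to 5.23 against 12.86 to 13.95). Hnf4a and Fgb were not: Hnf4a averaged 8.83 there against 7.95 in preparations 6 to 11, and Fgb 4.28 against 4.52. Fgb was detected on 1 of 25 arrays of the former and 11 of 36 of the latter, so a fall was not measurable. Ttr, though among the 8, stayed bright at 12.85 against 14.09. Markers of other cells also differed, with Krt19 at 8.53 against 4.35 and Acta2 at 9.59 against 6.65. Clec4g was at 4.65 against 7.86 and Marco at 4.95 against 7.53. Of the stellate cell markers, Dcn went the other way from Acta2, at 7.91 against 9.09. The log2 of the summed signal of 4 markers of dividing cells was 10.45 to 11.68 in preparations 1 to 4 and 7.02 to 7.39 in preparations 6 to 11. Il6st was lower in gp130- hepatocytes in both sets, at 5.72 to 5.93 against 6.35 to 6.74 in preparations 6 to 11 and 5.09 to 5.28 against 6.17 to 6.29 in preparations 1 to 4. The sources do not place its probe relative to the deleted part. Xist, which marks female cells, was at 8.86 and 8.26 in gp130- preparations 2 and 3 and between 4.17 and 4.25 in all others, so that in preparations 1 to 4 sex varied along with genotype. Each array detected 15257 to 19256 of 45281 probes, and the lowest detected signal of an array lay between 4.47 and 4.83.

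In preparations 6 to 11, conjugating enzyme genes were higher in gp130- than in gp130flox hepatocytes. The mean over the times of each preparation was compared with limma, and calls required an adjusted p below 0.05 together with more than a 1.5-fold difference. Of the 44 tested genes 15 were called higher in gp130- (7 Gst, 4 Ugt and 4 Sult genes) and 0 lower. Among all genes tested, 3.05% were called higher and 2.55% lower. A count by order alone gave 29 genes for which all 3 gp130- preparations lay above all 5 gp130flox preparations, and 0 genes the other way, where all genes had 10.8% and 11.3%. The median difference of the 44 genes was 0.69 on the log2 scale, against 0.00 (0.002) over all genes. Differences ranged from -0.52 for Ugt1a5 to 2.12 for Ugt1a9, and 39 of 44 were above 0. On bulk RNA a larger share of hepatocytes and more RNA per hepatocyte cannot be told apart. Beside this, 3 of 10 tested hepatocyte markers were called higher in gp130- (Alb, Cps1 and Cyp2e1) and 9 of 10 differences were above 0. The Alb probe gave a low signal, at 5.48 in gp130flox and 6.45 in gp130-, where the lowest detected signal was 4.47 to 4.83. Fgb, the gene below 0, was detected on 11 of 23 gp130flox and 0 of 13 gp130- arrays. The log2 of the summed signal of the 10 markers was 16.12 to 16.26 in gp130flox and 16.39 to 16.41 in gp130- preparations. The same sum of 5 Kupffer cell markers was 11.07 to 11.28 and 10.57 to 11.04, that of 5 stellate cell markers 9.51 to 9.83 and 9.14 to 9.51, that of 7 endothelial markers 8.98 to 9.11 and 8.95 to 9.83, and that of 4 cholangiocyte markers 11.46 to 11.68 and 11.28 to 11.62. Of these marker lists 1 further gene was called, the cholangiocyte marker Sox9, which was lower in gp130- by -0.98 (adjusted p = 0.0158). The part of these shifts in the result was not tested.

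**Figure D1:**
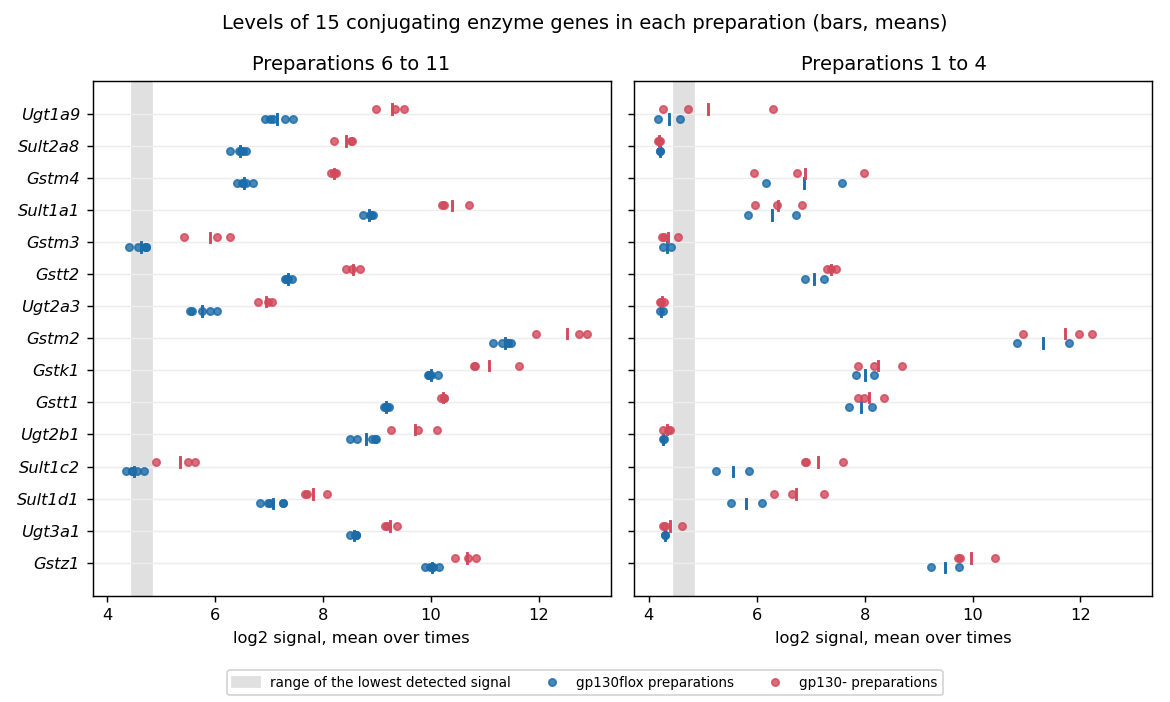
Log2 signal, averaged over times, of the 15 genes called higher in gp130- hepatocytes of preparations 6 to 11 (points, preparations; short bars, group means; grey band, the range of the lowest detected signal over arrays, 4.47 to 4.83). In the left panel the gp130- points of every gene lie above the gp130flox points, and in the right panel (preparations 1 to 4) they separate only for Gstt2, Sult1c2 and Sult1d1.

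Among the glutathione S-transferases, Gstt1 and Gstt2 of the theta class differed with little spread between preparations. Gstt1, which acts on small halogenated compounds, averaged 10.18, 10.25 and 10.25 in the gp130- preparations and 9.14, 9.17, 9.18, 9.18 and 9.24 in the gp130flox preparations. Its groups lay about 1 log2 unit apart with no overlap, a difference of 1.05 ± 0.12 (SE, 2.07-fold, adjusted p = 0.000152). Gstt2, its neighbour on chromosome 10, averaged 8.43, 8.54 and 8.69 against 7.30, 7.32, 7.33, 7.35 and 7.44, again without overlap, and differed by 1.21 ± 0.09 (2.31-fold, adjusted p = 8.51e-06). It had 2 probes past the filter, and its difference lay between 0.66 and 1.27 over 15 alternatives of processing, so its size depended on them. Gstt3, the other tested theta gene, was at 7.88, 7.90 and 8.94 against 7.13 to 7.84. Its preparations spread more widely (SD 0.60 and 0.31), with gp130- preparation 9 the highest, and the difference of 0.77 ± 0.25 was not called (adjusted p = 0.0697).

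Of 7 mu-class genes, which conjugate aromatic electrophiles and lie side by side on chromosome 3, 3 were called. Gstm4 averaged 8.16, 8.20 and 8.25 in the gp130- and 6.41, 6.49, 6.53, 6.58 and 6.70 in the gp130flox preparations. The groups were far apart and tight (difference 1.66 ± 0.38, 3.16-fold, adjusted p = 0.0166). The call was lost without gp130- preparation 6 or 7, at adjusted p = 0.0526 and 0.0680. Gstm3 averaged 5.42, 6.04 and 6.27 against 4.41 to 4.72. It was detected on 13 of 13 gp130- arrays but on 11 of 23 gp130flox arrays, so that its level in the controls lay at the edge of detection. It differed by 1.28 ± 0.16 (2.44-fold, adjusted p = 0.000415). Gstm2 averaged 11.96, 12.75 and 12.90 against 11.16 to 11.49 and differed by 1.16 ± 0.30 (2.24-fold, adjusted p = 0.0296). Its call was lost without any of gp130flox preparations 7 to 11 or gp130- preparations 6 or 7, with adjusted p between 0.0528 and 0.130. The other mu-class genes had differences of 0.64 (Gstm1), 0.52 (Gstm5), 0.98 (Gstm6) and 0.78 (Gstm7), and none of these 4 passed (adjusted p between 0.0621 and 0.183).

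Gstk1, the kappa-class enzyme of mitochondria and peroxisomes, averaged 10.80, 10.82 and 11.64 in gp130- and 9.95 to 10.14 (median 9.98) in gp130flox hepatocytes. The gp130- preparations all lay higher, with preparation 9 above the other two (difference 1.08 ± 0.21, 2.12-fold, adjusted p = 0.00594). Gstz1, the maleylacetoacetate isomerase of tyrosine breakdown, averaged 10.46, 10.70 and 10.85 against 9.89 to 10.15 and differed by 0.65 ± 0.17 (1.57-fold, adjusted p = 0.0265). This call was lost without gp130flox preparation 7, 9, 10 or 11 or gp130- preparation 6 or 9, with adjusted p from 0.05 to 0.0903. The omega-class genes Gsto1 and Gsto2, which reduce dehydroascorbate, differed by -0.02 ± 0.25 and 0.00 ± 0.11.

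The alpha class showed the same order of groups without a call. Gsta1 averaged 13.11, 13.47 and 13.52 in gp130- and 12.55 to 12.77 in gp130flox preparations. These groups did not overlap, but the difference of 0.75 ± 0.33 gave an adjusted p of 0.197. The fit takes its spread from all 13 preparations, and in preparations 1 to 4 Gsta1 ranged from 12.12 to 13.76. Gsta2, Gsta3 and Gsta4 differed by 0.78, 0.73 and 1.01 (adjusted p = 0.157, 0.0535 and 0.103), also with no overlap. Gsta4, which handles the lipid peroxidation product 4-hydroxynonenal, averaged 10.86 ± 0.41 (SD, n = 3) against 9.85 ± 0.15 (SD, n = 5). The pi class differed by 0.21 ± 0.16 for Gstp1, 0.59 ± 0.72 for Gstp2 and 0.12 ± 0.23 for Gstp3. Gsta1 and Gsta2, Gstp1 and Gstp2, and the mu genes are near copies, and a probe may take signal from several of them.

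Among the UGT genes the largest difference was that of Ugt1a9, which acts on bulky phenols. It averaged 8.99, 9.33 and 9.51 in the gp130- and 6.93, 7.02, 7.09, 7.30 and 7.46 in the gp130flox preparations. The lowest gp130- preparation lay more than 1 log2 unit above the highest gp130flox preparation (difference 2.12 ± 0.35, 4.36-fold, adjusted p = 0.00254). Of the other 7 genes of the Ugt1 cluster on chromosome 1, 0 were called. Ugt1a1, the bilirubin-conjugating form, averaged 7.59, 7.68 and 8.06 against 8.00 to 8.46, a difference of -0.37 ± 0.31 (adjusted p = 0.568). Ugt1a2 and Ugt1a5 were also lower in the mean, by -0.31 ± 0.12 and -0.52 ± 0.19 (adjusted p = 0.137 and 0.102). Ugt1a6a and Ugt1a6b, the forms for small phenols, differed by 0.26 ± 0.63 and 0.22 ± 0.65, and Ugt1a10 and Ugt1a7c by 0.61 ± 0.46 and -0.12 ± 0.23. Of these 8 genes, 4 had a difference above 0. The Ugt1a transcripts have first exons of their own and share the remaining exons, and the sources do not say which part each probe reads.

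Of 5 tested Ugt2 genes, which act on steroids and bile acids, 2 were called. Ugt2a3 averaged 6.80, 6.98 and 7.05 against 5.54, 5.58, 5.76, 5.91 and 6.04 and differed by 1.18 ± 0.11 (2.26-fold, adjusted p = 6.08e-05). Ugt2b1 averaged 9.27, 9.76 and 10.12 against 8.50, 8.63, 8.92, 8.96 and 8.98 and differed by 0.92 ± 0.17 (1.89-fold, adjusted p = 0.00447). In both genes all gp130- preparations lay above all controls, by a small margin for Ugt2b1. Ugt2b34 and Ugt2b35 had differences of like size, 1.06 ± 0.38 and 1.08 ± 0.60, that did not pass (adjusted p = 0.110 and 0.320), and that of Ugt2b36 was 0.39 ± 0.28. Ugt3a1, whose human counterpart uses UDP-N-acetylglucosamine, averaged 9.15, 9.19 and 9.38 against 8.50 to 8.62 and differed by 0.65 ± 0.09 (1.57-fold, adjusted p = 0.000727). Without gp130- preparation 9 its difference was 0.58, under the fold threshold. Ugt3a2 differed by 0.43 ± 0.28 (adjusted p = 0.415).

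Of 16 sulfotransferase genes on the array 8 were tested, and 4 of these were called. Sult2a8, of the hydroxysteroid and bile acid class, averaged 8.21, 8.53 and 8.54 in the gp130- and 6.29, 6.46, 6.49, 6.52 and 6.57 in the gp130flox preparations. The groups lay far apart, with no gp130- preparation near the controls, and differed by 1.96 ± 0.09 (3.89-fold, adjusted p = 2.23e-07). Sult1a1, the phenol sulfotransferase, averaged 10.21, 10.25 and 10.71 against 8.75, 8.87, 8.89, 8.89 and 8.92 and differed by 1.53 ± 0.21 (2.88-fold, adjusted p = 0.000816). Sult1d1, which in mice sulfates catecholamines, averaged 7.68, 7.70 and 8.09 against 6.84 to 7.27 and differed by 0.75 ± 0.20 (1.68-fold, adjusted p = 0.0368). Sult1c2, a further phenol sulfotransferase, averaged 4.91, 5.51 and 5.64 against 4.35 to 4.68 and differed by 0.85 ± 0.21 (1.80-fold, adjusted p = 0.0208). It was detected on 12 of 13 gp130- and 5 of 23 gp130flox arrays, so the control level was near the limit of detection. The call of Sult1d1 was lost without any of gp130flox preparations 8 to 11 or any gp130- preparation (adjusted p between 0.0509 and 0.124), and that of Sult1c2 without gp130flox preparation 9 or gp130- preparation 6 or 7 (adjusted p between 0.0507 and 0.112). Sult1e1 (estrogen), Sult2b1 (cholesterol), Sult4a1 and Sult5a1 differed by 0.14, 0.11, 0.01 and 0.22, with adjusted p of 0.579 or more.

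In preparations 1 to 4, Sult1c2 alone was called. It averaged 6.90, 6.91 and 7.60 in gp130- and 5.25 and 5.86 in gp130flox preparations, and differed by 1.58 ± 0.26 (3.00-fold, adjusted p = 0.00907). Among all genes 0.633% were called higher and 0.88% lower in this set. The call was lost without gp130flox preparation 1, where the difference was 1.28 with adjusted p = 0.139. The median of the 44 differences was 0.18, against 0.00 (-0.003) over all genes, and 35 of 44 were above 0. In 6 genes the gp130- preparations all lay above the gp130flox preparations (all genes, 12%), and in 0 below (all genes, 13.7%). The 6 genes were Gstm5, Gstt2, Gstt3, Sult1c2, Sult1d1 and Ugt1a5. Ugt1a5 was detected on 0 of 10 gp130flox and 5 of 15 gp130- arrays of this set, so its order lay at the detection limit. Preparations of 1 genotype differed widely in this set. Ugt2b35, for example, was at 10.81 and 7.93 in the gp130flox preparations and at 8.71, 9.15 and 11.13 in the gp130- preparations. Gstp2 was at 6.88 and 5.85 and at 5.36, 7.04 and 9.94. In both genes gp130- preparation 4, without Xist signal, was the highest of the gp130- preparations, and gp130flox preparation 1 was above preparation 2.

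**Figure D2:**
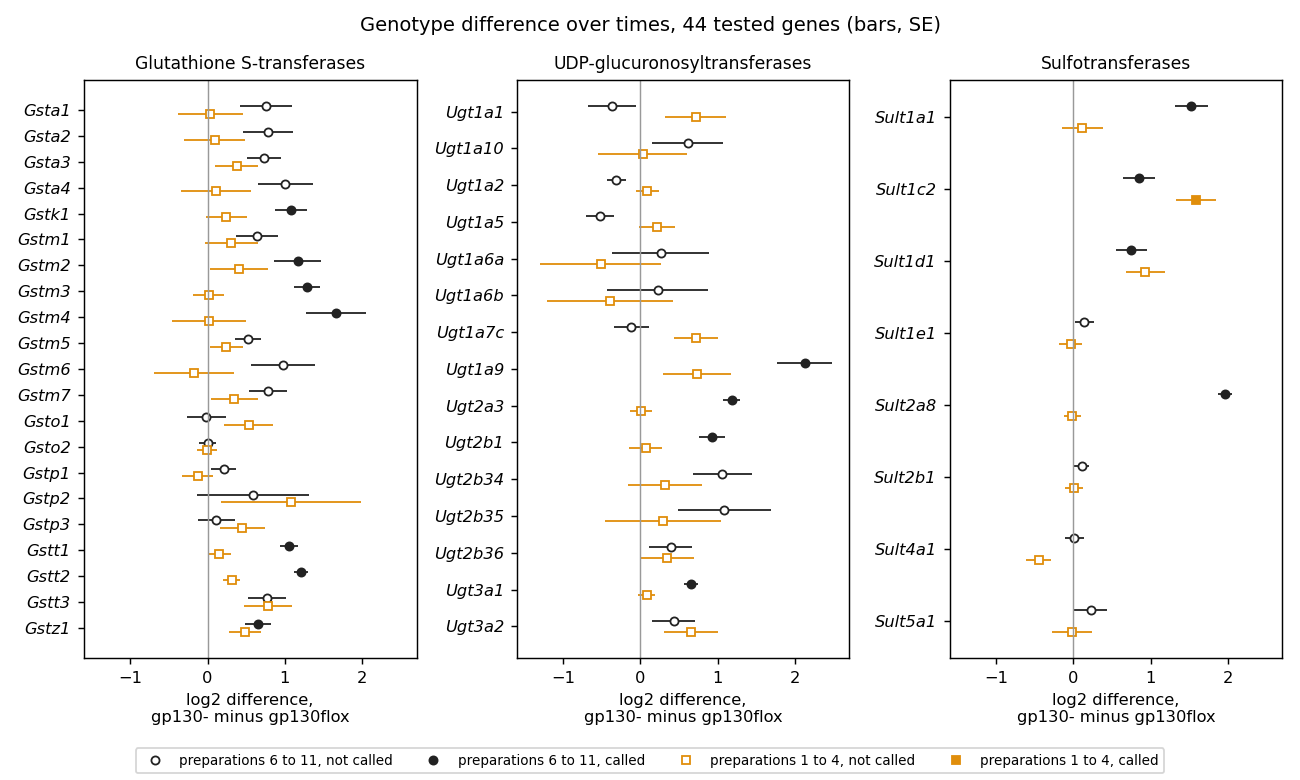
Log2 difference between genotypes over times (gp130- minus gp130flox) for the 44 tested genes in preparations 6 to 11 (black circles) and 1 to 4 (orange squares), with limma's standard errors as bars and called genes filled. Most black circles lie to the right of 0, with Ugt1a9 at 2.12 and Sult2a8 at 1.96 farthest out, while the only filled square is Sult1c2 at 1.58.

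The genotype differences of both sets were compared directly by the interaction of genotype and set. It was called for 5 genes, all with the larger difference in preparations 6 to 11, where 1.92% of all genes were called in either direction. Sult2a8 differed by 1.96 in preparations 6 to 11 and by -0.02 in preparations 1 to 4, a gap of 1.98 ± 0.14 (adjusted p = 2.82e-05). The gaps of Ugt2a3 and Gstt2 were 1.17 ± 0.18 (adjusted p = 0.00793) and 0.89 ± 0.14 (adjusted p = 0.00949). Those of Gstm3 and Gstt1 were 1.27 ± 0.26 (adjusted p = 0.0306) and 0.89 ± 0.18 (adjusted p = 0.0317). Sult2a8 and Ugt2a3 were detected on 0 of 25 arrays of preparations 1 to 4, and Gstm3 on 4 of 25 (1 gp130flox and 3 gp130- arrays), so their genotype difference there was not measurable. Gstt1 and Gstt2 were detected on all 61 arrays, and only their calls set 2 measured differences against each other. In gp130flox preparation 1, Gstt1 was at 9.46 at 3 h but at 7.74 to 7.89 at the other times. The interaction was not refitted without that array. The calls of Gstt1, Gstt2 and Gstm3 were lost without gp130flox preparation 1 (adjusted p = 0.182, 0.0561 and 0.162). That of Gstt2 was also lost with the mean of a gene's probes (0.36, adjusted p = 0.0887). Those of Gstt1 and Gstm3 were also lost without gp130flox preparation 7, 8, 9, 10 or 11 or gp130- preparation 2, 6 or 7, and that of Gstm3 without gp130- preparation 3, with adjusted p between 0.0510 and 0.0710. Sult1c2 differed in both sets, and its gap of -0.74 ± 0.33 did not pass (adjusted p = 0.314).

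The genotype difference in preparations 6 to 11 was present before IL-6. In a fit of group means over all 61 arrays, 8 of the 44 genes were called higher in gp130- at 0 h (all genes, 1.01%), 13 at 1 h (2.23%), 12 at 3 h (3.38%), 14 at 6 h (4%) and 15 at 12 h (3.23%). None was called lower at any of these times (0 genes), where 1.14%, 1.5%, 2.84%, 3.86% and 3.84% of all genes were. At 1 time or more 20 genes were called (all genes in either direction, 13.2%). Those called at every time were 6 (all genes, 1.14%), namely Gstm3, Gstt1, Gstt2, Sult1a1, Sult2a8 and Ugt1a9. The median difference of the 44 genes was 0.50, 0.64, 0.66, 0.73 and 0.64 at the 5 times. Genes called at a single time or a pair of times but not over times were Gsta3 at 6 and 12 h (1.00 and 0.78), Gstm5 at 6 h (0.97), Gstm7 at 3 h (1.19), Gstt3 at 3 and 12 h (1.27 and 0.91) and Ugt2b34 at 6 h (1.91). At 3 h and 6 h only 2 gp130- arrays of this set were measured. Without gp130- preparation 7, 13 genes were called at 1 time or more. In preparations 1 to 4 Sult1c2 was called at every time (all genes, 0.28%), with differences from 1.33 at 3 h to 1.74 at 6 h, and no other of the 44 genes at any time (all genes at 1 time or more, 4.2%).

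The change from 0 h after IL-6 was small for nearly all of these genes. Of the 44 genes 0 were called at any time in either genotype and set, with all genes at 1 time or more at 0.765% in gp130flox and 0.0576% in gp130- of preparations 6 to 11, and at 0.271% and 0.0329% in preparations 1 to 4. By unadjusted p under 0.05, in gp130flox of preparations 6 to 11 there were 1, 1, 2 and 1 genes at 1, 3, 6 and 12 h, and in gp130- 2, 4, 5 and 3 genes. In preparations 1 to 4 only 1 gene, at 3 h in gp130flox, reached it. The median change in gp130flox of preparations 6 to 11 was -0.06, -0.02, -0.12 and -0.12 at 1, 3, 6 and 12 h, with single genes between -0.73 and 0.36. In gp130- it was 0.06, 0.12, 0.25 and 0.06, with single genes between -0.46 and 1.13. Ugt2b35 had the largest of the gp130flox changes in preparations 6 to 11. Its levels were 8.34 to 9.03 at 0 h and 7.77 to 8.35 at 12 h, ranges that barely met, and it was lower at 12 h in 5 of 5 preparations. The difference of -0.73 ± 0.60 did not pass (adjusted p = 0.844), but with the preparation as a fixed block it was called (± 0.16, adjusted p = 0.00409, all genes 1.47%).

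Sult2a8 differed between the genotypes in its change after IL-6. In gp130flox hepatocytes of preparations 6 to 11 its mean was 6.81 ± 0.36 (SD, n = 5) at 0 h, 6.26 ± 0.46 (SD, n = 4) at 3 h, 6.23 ± 0.51 (SD, n = 5) at 6 h and 6.51 ± 0.40 (SD, n = 5) at 12 h. In gp130- hepatocytes it was 7.94 ± 0.13 (SD, n = 3) at 0 h, 8.60 ± 0.46 (SD, n = 2) at 3 h, 9.06 ± 0.18 (SD, n = 2) at 6 h and 8.48 ± 0.17 (SD, n = 3) at 12 h. The gp130- arrays at 6 h, at 8.94 and 9.19, lay above all those at 0 h (7.81 to 8.06), while the gp130flox ranges at 0 and 6 h overlapped (6.43 to 7.31 and 5.34 to 6.65). The changes themselves, -0.58 ± 0.21 and 1.13 ± 0.30 at 6 h, did not pass alone (adjusted p = 0.302 and 0.182). Their difference of 1.71 ± 0.36 was called (adjusted p = 0.0300, all genes at 6 h 0.0905%), as the only difference of responses among the 44 genes in either set (at 1 time or more, 0.14% of all genes in preparations 6 to 11 and 0.0494% in preparations 1 to 4). The call was lost without gp130flox preparation 8 or 11 (adjusted p = 0.0693 and 0.0660) or gp130- preparation 6 or 7 (adjusted p = 0.14 and 0.339), and in a fit of the arrays of preparations 6 to 11 alone (adjusted p = 0.14), and its value stayed between 1.44 and 1.91 over 17 alternatives. Ugt2a3 had a difference of responses of 1.10 ± 0.30 at 6 h that did not pass (adjusted p = 0.178). The genotype difference of Sult2a8 was accordingly 1.13, 1.83, 2.35, 2.84 and 1.97 at 0, 1, 3, 6 and 12 h, each called.

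**Figure D3:**
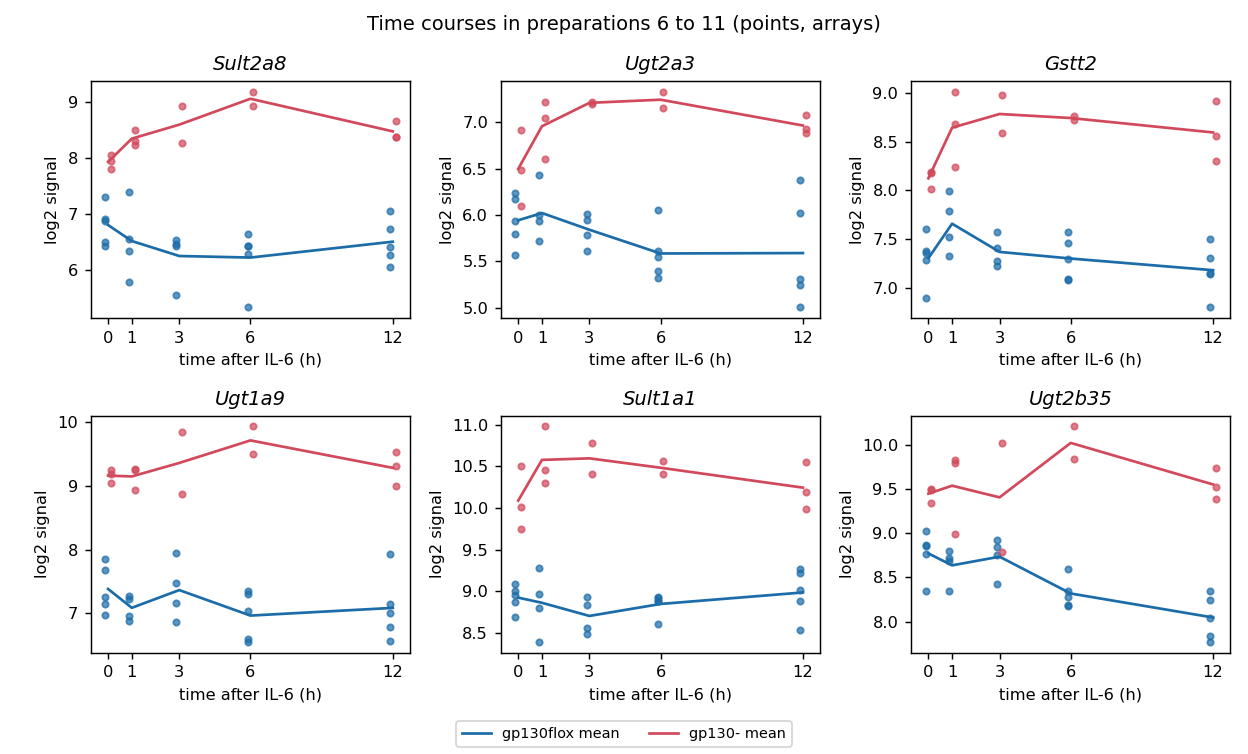
Log2 signal against hours after IL-6 for 6 genes in preparations 6 to 11 (points, arrays, shifted sideways by genotype; lines, group means). Sult2a8 averages 6.23 in gp130flox and 9.06 in gp130- at 6 h against 6.81 and 7.94 at 0 h, and the Ugt2b35 points of gp130flox at 12 h lie between 7.77 and 8.35.

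The promoters of the genes were searched for 3 short motifs, those known for NRF2, for STAT factors and for the aryl hydrocarbon receptor. No motif of PXR or CAR was searched. RefSeq's promoter windows (GRCm38.p6, 250 bases before to 50 after the start of transcription) were matched by symbol for 39 of 44 genes. The antioxidant response element bound by NRF2 was searched as TGACNNNGC, the STAT element as TTCNNNGAA and the xenobiotic response element of the aryl hydrocarbon receptor as TGCGTG, each on both strands. Of 39 genes 3 held the antioxidant response element (7.69%, against 14.0% of 27025 genes). The STAT element was held by 3 (7.69%, against 9.55%) and the xenobiotic response element by 1 (2.56%, against 9.59%). Among the 9825 tested genes with a window the shares were 16.7%, 8.44% and 13.6%, in the same order. Of the 15 genes called higher in gp130- hepatocytes, 14 had a window, and 1 of these, Sult1d1, held any of the motifs. The windows of Sult1d1 and of 3 genes that carry the other motifs are printed to show the sequence behind these counts, with the motif in capitals. Sult1d1 holds the xenobiotic response element on the opposite strand, from base -47 relative to the start. Gsta3 holds the antioxidant response element from -121, and Gsta1 and Ugt1a6a hold the STAT element from -162 and -121.
Sult1d1, chr5:87568957-87569256, minus strand: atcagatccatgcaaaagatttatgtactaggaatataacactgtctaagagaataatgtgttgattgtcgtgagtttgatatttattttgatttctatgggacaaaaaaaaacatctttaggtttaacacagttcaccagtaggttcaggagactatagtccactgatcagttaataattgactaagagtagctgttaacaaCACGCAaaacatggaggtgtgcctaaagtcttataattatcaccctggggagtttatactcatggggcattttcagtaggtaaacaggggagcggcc
Gsta3, chr1:21240335-21240634, plus strand: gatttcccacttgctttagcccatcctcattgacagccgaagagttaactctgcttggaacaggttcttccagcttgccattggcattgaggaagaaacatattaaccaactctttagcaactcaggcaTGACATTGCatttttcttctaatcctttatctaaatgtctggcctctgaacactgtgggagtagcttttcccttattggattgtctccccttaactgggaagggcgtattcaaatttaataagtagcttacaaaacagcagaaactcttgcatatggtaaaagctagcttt
Gsta1, chr9:78230419-78230718, plus strand: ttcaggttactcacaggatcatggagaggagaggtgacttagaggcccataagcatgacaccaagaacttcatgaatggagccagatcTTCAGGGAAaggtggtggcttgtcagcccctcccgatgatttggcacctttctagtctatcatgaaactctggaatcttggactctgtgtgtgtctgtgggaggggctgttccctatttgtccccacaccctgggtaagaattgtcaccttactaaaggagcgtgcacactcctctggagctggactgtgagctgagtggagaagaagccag
Ugt1a6a, chr1:88134559-88134858, plus strand: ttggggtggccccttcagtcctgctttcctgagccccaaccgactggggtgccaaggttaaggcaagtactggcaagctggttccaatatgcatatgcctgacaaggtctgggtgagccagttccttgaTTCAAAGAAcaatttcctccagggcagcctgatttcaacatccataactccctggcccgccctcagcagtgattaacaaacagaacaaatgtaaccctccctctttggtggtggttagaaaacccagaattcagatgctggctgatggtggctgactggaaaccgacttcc
A match describes letters in these windows and not a bound site. Gsta1, Gstm6 and Ugt1a6a, with the STAT letters, were not called after IL-6 at any time in either genotype. None of the other tested genes of these families was called either, so this does not tell genes with the motif from genes without it.

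The levels of the 2 sets of preparations differed far more than those of the genotypes for part of the genes. The sets were noticed in gene levels of these arrays, so this difference is a description with no test. A difference over 2-fold with no overlap of preparation means was seen in 17 of 44 genes (all genes, 15.2%). Of these, 14 were higher in preparations 6 to 11 (all genes, 6.91%) and 3 in preparations 1 to 4 (all genes, 8.26%). Ugt3a2, whose human counterpart uses UDP-glucose, averaged 11.26 ± 0.25 (SD, n = 8) in preparations 6 to 11 and 5.82 ± 0.72 (SD, n = 5) in preparations 1 to 4, 43.2-fold apart. Ugt3a1, next to it on chromosome 15, averaged 8.83 ± 0.35 in preparations 6 to 11 and was detected on 4 of 25 arrays in preparations 1 to 4, with a mean of 4.36 at the detection limit. Ugt2b1 was at 8.50 or more in each preparation of the former set and detected on 0 of 25 arrays of the latter, at least 24.7-fold lower. Sult2a8 and Ugt2a3 were likewise undetected there, at least 6.42-fold and 3.23-fold lower. For these 3 bounds the level of preparations 1 to 4 was taken as each array's lowest detected signal or the probe's own, whichever was higher.

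Other genes higher in preparations 6 to 11 and detected on all arrays of both sets were Sult1a1 (8.52-fold), Gstk1 (4.79-fold), Gstt1 (2.94-fold) and Gstp3 (2.67-fold). A further 5 were detected on part of the 25 arrays of preparations 1 to 4, so that no fold is given. Ugt1a1 (12 arrays) averaged 4.81 there against 8.01, Ugt1a9 (13 arrays) 4.81 against 7.95, Ugt1a5 (5 arrays) 4.36 against 6.39, Sult5a1 (6 arrays) 4.48 against 6.01 and Ugt1a2 (4 arrays) 4.34 against 5.58. Higher in preparations 1 to 4 were Ugt1a7c (4.36-fold), Sult4a1 (at least 2.88-fold, detected on 25 of 25 arrays there and on 0 of 36 in the other set) and Gsto1 (2.47-fold). Sult4a1 is known as a sulfotransferase of the brain. The alpha-class genes were alike in both sets: Gsta1 averaged 12.90 ± 0.41 (SD, n = 8) and 12.96 ± 0.75 (SD, n = 5), and the other 3 alpha-class genes lay within 1.19-fold. Gstm1, Gstm2, Gstm4, Gstm5, Ugt2b34 and Ugt2b36 were also within 1.31-fold. Over these same preparations the log2 sum of the hepatocyte markers was 12.24 to 14.13 in preparations 1 to 4 and 16.12 to 16.41 in preparations 6 to 11. Krt19, Acta2, Dcn, Clec4g and Marco differed as given above, with Acta2 and Dcn in opposite directions. The part of the marker shift in the gene levels was not tested.

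**Figure D4:**
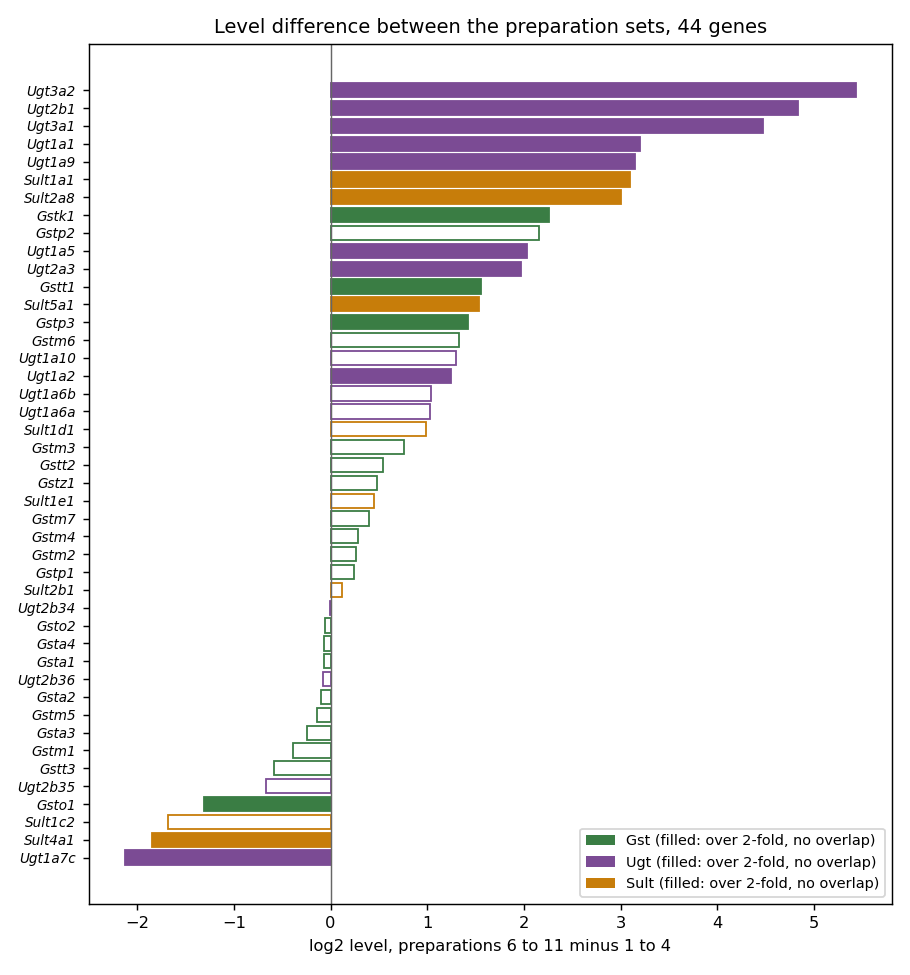
Difference of the mean log2 level between preparations 6 to 11 and 1 to 4 for the 44 tested genes, coloured by family and filled where the sets were over 2-fold apart with no overlap of preparation means. Ugt3a2 at 5.43 and Ugt2b1 at 4.83 stand at the top and Ugt1a7c at -2.13 at the bottom, with all 4 Gsta genes near 0.

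Genes that work with these enzymes were set beside them in preparations 6 to 11. Of 9 tested xenobiotic sensors and liver factors, 3 were called higher in gp130- hepatocytes and 1 lower. Nr1i2 (PXR) averaged 5.92 to 6.30 in gp130- and 5.11 to 5.39 in gp130flox preparations, a difference of 0.91 ± 0.10 (adjusted p = 0.000124). Nr1i3 (CAR) averaged 5.70 to 6.23 against 4.84 to 5.17 and differed by 0.90 ± 0.12 (adjusted p = 0.000482), and Nr1h4, the bile acid receptor, differed by 0.67 ± 0.17 (adjusted p = 0.0261). Cebpb, a factor that IL-6 is known to induce, fell by 0.73 ± 0.15 on the log2 scale (adjusted p = 0.00988). In preparations 1 to 4 Nr1i2 and Nr1h4 were also called higher, by 0.81 and 1.51, and Cebpb lower, by -1.50, while Nr1i3 differed by 0.07 ± 0.15.

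Of 15 tested genes listed for NRF2, 0 were called in preparations 6 to 11 and 12 had a difference above 0, with a median of 0.21. The list holds target genes together with Nfe2l2 (NRF2 itself, -0.22) and Keap1 (its inhibitor, 0.41). By unadjusted p, Nqo1 (quinone reductase) had 0.0313, Keap1 0.00892 and Ephx1 (microsomal epoxide hydrolase) 0.00320. Ephx1 had an adjusted p of 0.0359 at 1.34-fold. Of 11 genes that supply the cosubstrates 1 was called, Ugp2, which makes UDP-glucose. It averaged 8.39 to 9.42 against 7.42 to 7.66 and differed by 1.49 ± 0.29 (adjusted p = 0.00631). Of 19 other genes of conjugation and related steps 4 were called higher, and these were Mgst3 (a microsomal GST, 1.30 ± 0.24), Baat (bile acid conjugation with glycine and taurine, 1.23 ± 0.34), Ephx2 (soluble epoxide hydrolase, 1.01 ± 0.22) and Inmt (a methyltransferase, 0.92 ± 0.10). In this list Gstcd was called lower, by -0.64 ± 0.13. The lists share Ephx1, Gclc and Gclm. In preparations 1 to 4 none of Ugp2, Mgst3, Baat, Ephx2, Inmt and Gstcd was called, and their differences were 0.10, 0.15, 1.02, 0.73, 0.15 and -0.47.

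Preparation means of some genes ran closely together. As a description, the Pearson correlation of Gsta1 with Gsta2 was 0.993 over 13 preparations and 0.986 over the 8 of numbers 6 to 11, and that of Ugt1a6a with Ugt1a6b 0.998 and 0.992. The members of each of these pairs are near copies, and their probes may read the same transcripts. Gstt1 and Gstt2 had 0.836 and 0.993, Sult2a8 and Ugt2a3 0.992 and 0.960, Ugt2b1 and Ugt3a1 0.994 and 0.793, and Gstm3 and Gstm4 0.747 and 0.933. The NRF2 target Nqo1 had 0.942 and 0.955 with Gsta1 and 0.903 and 0.906 with Gstm4, but 0.776 and 0.631 with Ugt1a6a. These points share genotype and set, and no test was made. Of the 15 genes that did not pass the filter, Sult1b1, Sult3a1, Sult2a2 and Ugt8a were detected on 1, 1, 2 and 3 arrays. Gstt4, Sult1c1, Sult2a1, Sult2a6, Sult3a2, Sult6b1, Ugt2a1, Ugt2a2, Ugt2b37, Ugt2b38 and Ugt2b5 were detected on 0 of 61 arrays by their best probe.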

How the data were processed

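The authors extracted signal intensities of 61 Illumina MouseWG-6 v2 arrays (45281 probes) with GenomeStudio 1.6.0, per the labels, and deposited them without normalization, beside a detection p-value that the authors' software computed for each probe and array. A second deposited table, of normalized values, was not used here because its columns name no preparation.

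Background correction (from detection p-values, offset 16), quantile normalization and log2 were done by neqc (limma 3.58.1, R 4.3.3). Genes came from 34885 probes with 1 gene (18 had several, 10378 none); 34807 were matched by Entrez identifier. The filter asked for detection (p under 0.05) on 5 or more arrays, and the brightest such probe stood for its gene. A gene was called at a Benjamini-Hochberg adjusted p under 0.05 over all 12157 genes and a fold over 1.5, in lmFit and eBayes fits of 13 preparation means (4 groups) or of 61 arrays (20 groups). All ± after a difference are moderated standard errors. The number of arrays limits the precision. No pair of arrays was identical (0 pairs).

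Genes named are those called in any comparison, the 2 brightest of each class and the 6 with the largest level difference between sets in each direction; other members are named for completeness. The members, sets and gene lists were chosen with earlier results of these data known. Alternatives were another normalization, offset 50, other detection filters, the mean of a gene's probes, no fold threshold, blocks, arrays of 1 set only, the set as a term, and leaving out each preparation.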

Additional observations from a re-analysis of the deposited data

Results flagged for a closer look

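In 3 of the 34 genes described by name, 1 of the 5 gp130flox preparations of numbers 6 to 11 lay far from the other 4 in its level over times: preparation 10 for Gstk1 (10.14, the highest) and for Sult1a1 (8.75, the lowest), and preparation 11 for Ugt3a1 (8.50, the lowest). Chance alone marks about 1 in 20 such groups, and the gaps were small beside the genotype differences of these genes.

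The interaction test of genotype and set was called for 5 genes, of which only Gstt1 and Gstt2 were measurable in both sets. The difference in preparations 6 to 11 exceeded that in preparations 1 to 4 by 1.27 for Gstm3, 0.89 for Gstt1, 0.89 for Gstt2, 1.98 for Sult2a8 and 1.17 for Ugt2a3 on the log2 scale. Sult2a8 and Ugt2a3 were detected on 0 of the 25 arrays of preparations 1 to 4 and Gstm3 on 4, so for these 3 genes no genotype difference was measurable there.

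The response of Sult2a8 to IL-6 at 6 h differed between genotypes of preparations 6 to 11, by 1.71 on the log2 scale (gp130- minus gp130flox). Here 2 gp130- arrays at 6 h stand against 3 at 0 h.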

How the results depend on the processing

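Counts are of the 44 tested genes. The count for the genotype over times in preparations 6 to 11 was 15, and 11 to 13 when 1 preparation was left out; at 1 time or more it was 20, and 13 to 17. In preparations 1 to 4 these were 1, and 0 to 3 or 1 to 4. The interaction with set was called for 5 genes, and for 2 to 11 when 1 preparation was left out (11 without gp130- preparation 4, 2 without gp130flox preparation 1). Differences of IL-6 responses were 1 in preparations 6 to 11 (0 to 2 with 1 left out) and 0 in preparations 1 to 4 (0 to 1), and IL-6 changes in gp130flox of preparations 1 to 4 were 0 (0 to 2, the latter without preparation 2). Level differences between sets were 17 (17 to 19).

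The sources do not say that equal numbers pair arrays. The deviations of 2 arrays of 1 preparation from their group means correlated with a median of 0.12 (lowest -0.37) in gp130flox and 0.31 (lowest -0.05) in gp130- of preparations 6 to 11, and of 0.80 (lowest 0.70) in gp130- of preparations 1 to 4. With the preparation as a random replicate block over all arrays, the genotype counts over times were 25 in preparations 6 to 11 and 4 in preparations 1 to 4. With it as a fixed block, IL-6 changes in gp130flox were 1 in preparations 6 to 11 (Ugt2b35 at 12 h, all genes at 1 time or more 2.34%). In preparations 1 to 4 they were 4 (Gstp2, Gstt1, Ugt2b35 and Ugt3a2 at 3 h, all genes at 1 time or more 4.36%). There the 3 h array of preparation 1 correlated with its others at a mean of 0.965, the lowest of all arrays. Differences of responses with the fixed block were 2 in preparations 6 to 11 (Sult2a8 and Ugt2a3 at 6 h, all genes 1.53%). In preparations 1 to 4 there was 1 (Ugt3a2 at 3 h, all genes 0.814%).

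An offset of 50 gave 1 IL-6 change in gp130- of preparations 6 to 11. The arrays of 1 set alone gave 1 IL-6 change in gp130flox and 0 differences of responses in preparations 6 to 11. They gave 0 genes for the genotype at each time in preparations 1 to 4. A fit of both sets with the set as an additive term gave 15 (all genes at 1 time or more, 7.68%). Without gp130- preparations 2 and 3, an alternative chosen after seeing the data that leaves 1 gp130- preparation, the counts were 8 over times and 8 at 1 time or more in preparations 1 to 4 and 8 for the interaction. Of 355 refits of single genes 293 kept the call, 62 lost it and 0 reversed. Gstk1, Gstm3, Gstt1, Gstt2, Sult1a1, Sult2a8, Ugt1a9, Ugt2a3 and Ugt2b1 kept the call over times in preparations 6 to 11 in all 15 alternatives; Gstm2 and Sult1d1 also lost it with no detection filter, Sult1d1 and Ugt3a1 with the mean of probes, and Sult1c2 with offset 50 and without background correction. The interaction of Gstm3 was also lost with no detection filter, without background correction and without gp130- preparations 2 and 3 (adjusted p = 0.0582, 0.0525 and 0.0691). The authors' normalized table was not run as an alternative. The cause of these shifts was not tested.

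The sets hold 2 to 5 preparations a genotype, and levels near 4.5 are at the detection limit, so small differences of Gsto2, Sult1e1 and Sult2b1 were not detectable.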

Other observations

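The 2 members of the Sult1 class on chromosome 5 with a tested probe, Sult1d1 and Sult1e1, neighbour the Ugt2 genes Ugt2a3, Ugt2b1, Ugt2b34, Ugt2b35 and Ugt2b36 there. In preparations 6 to 11 the differences between genotypes of these 7 genes ran from 0.14 (Sult1e1) to 1.18 (Ugt2a3), all above 0. The 8 Ugt1 genes of chromosome 1, by contrast, ran from -0.52 (Ugt1a5) to 2.12 (Ugt1a9), with 4 on either side of 0.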
